A study of Rattus norvegicus with 12 samples.

Results

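The matrix metalloproteinases (MMP) and their tissue inhibitors (TIMP) were followed through the uterus of ovariectomized rats given casein or soy protein isolate, with and without estradiol (E2). The members were matched by symbol: the 7 proteases Mmp2, Mmp3, Mmp7, Mmp9, Mmp11, Mmp14 and Mmp20 and the 3 inhibitors Timp1, Timp2 and Timp3. All 10 had a row in every library, out of 16493 genes, and each was represented by 1 transcript. Of the 10, 8 reached the expression minimum for testing, a level of 1 FPKM (read number scaled to transcript length and to the mapped reads of the library) in 3 or more of the 12 libraries. Mmp3 and Mmp9 stayed under it.

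MMPs are zinc-dependent endopeptidases that are made as inactive precursors and cut collagen, laminin, proteoglycans, growth factor carriers and adhesion proteins once the propeptide is removed. Most are secreted, a few are anchored in the cell membrane, and TIMPs block them by occupying the active site. In the uterus the family is known for tissue remodelling during the cycle, implantation and involution, and Mmp7 in particular is known as a product of glandular and luminal epithelium, released toward the lumen.

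All animals were female Sprague-Dawley rats, ovariectomized on postnatal day 50 so that their own ovarian estrogens were absent, and 65 days old by the labels when the uterus was taken. The CAS group ate a casein diet from day 30 and received vehicle (polyethyleneglycol) by subcutaneous osmotic pump, and the SPI group ate the same formula with soy protein isolate as its protein and received the same vehicle. The CAS-E2 and SPI-E2 groups ate those diets and received E2 at 5 µg/kg per day in that vehicle. Each group had 3 libraries, and each library was made from an equal mix of RNA from 2 uteri, so that the spread between libraries is the spread between pools of whole uterus. In such whole-tissue RNA, fewer cells of a type and less RNA per cell cannot be told apart. The barcoded libraries of a group were combined for sequencing, so group and sequencing pool cannot be told apart either.

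In the files' build, rn4, Mmp7 lies at chr8:4526018-4533730 on the plus strand, in 6 exons with 1024 exonic bases. Mmp20 at chr8:4467263-4507865 and Mmp3 at chr8:4315601-4329146 lie before it on the same strand, in a row of MMP genes. The other proteases are spread over the genome, with Mmp2 at chr19:15246036-15275061, Mmp9 at chr3:155985473-155993433, Mmp11 at chr20:13129667-13138449 and Mmp14 at chr15:32493852-32503076. The inhibitor genes are on the minus strand, Timp1 at chrX:12542496-12547094, Timp2 at chr10:108310473-108358821 and Timp3 at chr7:19677146-19727072. Timp1 lies inside Syn1 and Timp3 inside Syn3, synapsin genes on the opposite strand, with 0 exonic bases shared, and those hosts stayed at or under 1.502 and 0.664 FPKM. The library kit as described did not separate the strands.

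The 5 promoters below are shown because 4 of their genes passed the test and the fifth, Mmp3, sits in the same gene row as Mmp7 with almost no reads. Each is the stretch of 250 bases before the annotated start, 5′ to 3′ on the strand of the gene, from RefSeq on the later build GRCr8, where 7 of the 10 members had an entry. Capitals mark matches to an AP-1 site (TGANTCA, both strands), an ETS/PEA3 site (AGGAAG, both strands) and a TATA box (TATAAA, gene strand). A full estrogen response element, the arm GGTCA followed after 3 bases by its inverted copy, was searched too and matched none of the 7.
Mmp7 promoter, chr8:13132793-13133042 (plus strand): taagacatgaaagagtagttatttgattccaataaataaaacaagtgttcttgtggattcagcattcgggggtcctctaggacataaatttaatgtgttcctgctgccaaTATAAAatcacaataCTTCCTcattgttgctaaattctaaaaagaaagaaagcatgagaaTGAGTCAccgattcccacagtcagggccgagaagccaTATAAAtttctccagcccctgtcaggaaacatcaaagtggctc
Mmp20 promoter, chr8:13074029-13074278 (plus strand): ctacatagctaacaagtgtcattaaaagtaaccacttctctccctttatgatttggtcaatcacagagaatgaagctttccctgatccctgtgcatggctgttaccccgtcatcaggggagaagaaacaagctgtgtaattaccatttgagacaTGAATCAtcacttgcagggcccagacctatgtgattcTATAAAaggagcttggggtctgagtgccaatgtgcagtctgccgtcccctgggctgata
Mmp3 promoter, chr8:12925031-12925280 (plus strand): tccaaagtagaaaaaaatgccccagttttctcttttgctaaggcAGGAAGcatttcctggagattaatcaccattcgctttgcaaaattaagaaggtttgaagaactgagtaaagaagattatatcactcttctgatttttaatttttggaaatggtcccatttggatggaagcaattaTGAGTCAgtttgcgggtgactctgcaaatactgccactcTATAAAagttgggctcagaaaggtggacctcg
Timp1 promoter, chrX:3771123-3771372 (minus strand): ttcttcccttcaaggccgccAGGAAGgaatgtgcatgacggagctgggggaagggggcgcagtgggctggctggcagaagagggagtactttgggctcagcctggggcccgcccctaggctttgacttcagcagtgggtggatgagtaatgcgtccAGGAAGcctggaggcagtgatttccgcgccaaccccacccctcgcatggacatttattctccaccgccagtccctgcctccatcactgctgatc
Timp3 promoter, chr7:19459559-19459808 (minus strand): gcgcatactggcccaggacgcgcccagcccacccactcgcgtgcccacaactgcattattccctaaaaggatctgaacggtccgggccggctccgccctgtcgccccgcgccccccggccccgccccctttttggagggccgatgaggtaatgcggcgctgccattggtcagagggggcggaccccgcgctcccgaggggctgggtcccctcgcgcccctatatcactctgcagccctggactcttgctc

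AP-1 and TATA matches were found together in the promoters of Mmp7, Mmp20 and Mmp3. Mmp1, Mmp10, Mmp12 and Mmp13 of the same gene row on GRCr8 held both as well, whereas Mmp8, Mmp27 and Mmp1b held neither. An AP-1 match stood 80 bases before the start of Mmp7, 96 before that of Mmp20 and 71 before that of Mmp3. Those promoters held a TATA match as well, at 43 and 140 bases before the start in Mmp7, at 59 in Mmp20 and at 32 in Mmp3. Of all 33469 promoters of this length in the table, 6.34% held an AP-1 match and 8.06% a TATA match. Neither motif was found in the windows of Mmp11, Timp1, Timp2 or Timp3. Timp1 held ETS/PEA3 matches 94 and 230 bases before the start, as did Mmp7 at 125 and Mmp3 at 206, against 29.5% of all promoters with at least 1. The full estrogen response element was in 0.0239% of all promoters, and its single arm GGTCA, in 35.4% of them, was found 196 bases before Mmp20 and 84 before Timp3. The G and C content was 38.8% for Mmp7 and for Mmp3 and 46% for Mmp20, against 61.2% for Timp1 and 69.6% for Timp3, around a median of 51.2% over all promoters. A match is a run of letters and not a measured binding site.

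Read depth, estimated from the coverage and FPKM given for each transcript, ran from 6353210 to 9862180 mapped reads a library and overlapped between all 4 groups. Markers of the cell types that a uterus can hold were read beside the members. The summed FPKM of the epithelial markers was 201 to 231 in CAS, 946.1 to 1658 in CAS-E2, 131.3 to 163.1 in SPI and 553.4 to 2004 in SPI-E2, with Cldn3 listed at 0 in every library. The sum over the stromal markers was 621.8 to 793.7 in CAS, 306 to 656.2 in CAS-E2, 647.5 to 738.4 in SPI and 242.1 to 596.3 in SPI-E2. SPI-E2 1 had the lowest epithelial sum and the highest stromal sum of its group. Smooth muscle markers, 6 of them tested, were called in 0 cases under either diet (2 of 6 on casein without CAS-E2 3), and their sum of 2020 to 4736 FPKM over all groups showed the muscle of the uterine wall in every library. SPI 1 stood apart by its liver markers, which summed to 1402 FPKM against 11.4 to 241.5 in the other libraries. Fat markers summed to 462.9, 320.5 and 71.9 FPKM in SPI, 47.97 to 105 in CAS, 98.19 to 254.3 in CAS-E2 and 152.2 to 304.7 in SPI-E2. Without SPI 1, 2 of the members were called for SPI-E2 against SPI in place of 3, Timp3 being the one lost. Beside them, 10.3% of all genes were called in place of 10.2%. For SPI against CAS 0 members were called, as with SPI 1.

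The question of the first comparison was what E2 does to the protease system of a uterus without ovaries. On casein, E2 was followed by a very large rise of Mmp7, rises of Timp1 and Mmp20 and a fall of Timp3, while Timp2, Mmp2 and Mmp14 stayed short of the threshold. A gene was called changed where limma gave an adjusted p under 0.05 over the 10279 genes tested and the difference was at least 2-fold on the log2(FPKM + 1) scale. By that rule CAS-E2 exceeded CAS for 3 of the 8 tested members and was below it for 1, beside 7.99% and 6.37% of all genes. Of the 3, Mmp20 reached the expression minimum through E2 libraries alone. By the adjusted p alone 5 of the 8 passed, beside 39.1% of all genes, and for all 8 the 3 libraries of one group lay past the 3 of the other, beside 55.1%. The median difference of the 8 was 0.61 on the log2 scale, and that of all genes −0.07. On soy, SPI-E2 against SPI gave 2 members higher and 1 lower, beside 8.39% and 1.86% of all genes, with medians of 0.37 for the members and 0.11 for all genes. The adjusted p alone was passed by 4 of the 8, beside 27.6%, and 4 had groups that did not overlap, beside 41.3%. Without SPI-E2 1, the library with the least epithelial marker RNA of the E2 groups, these counts became 3 higher and 1 lower. The share of all genes called rose in the same fit, from 10.2% to 17%.

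**Figure D1:**
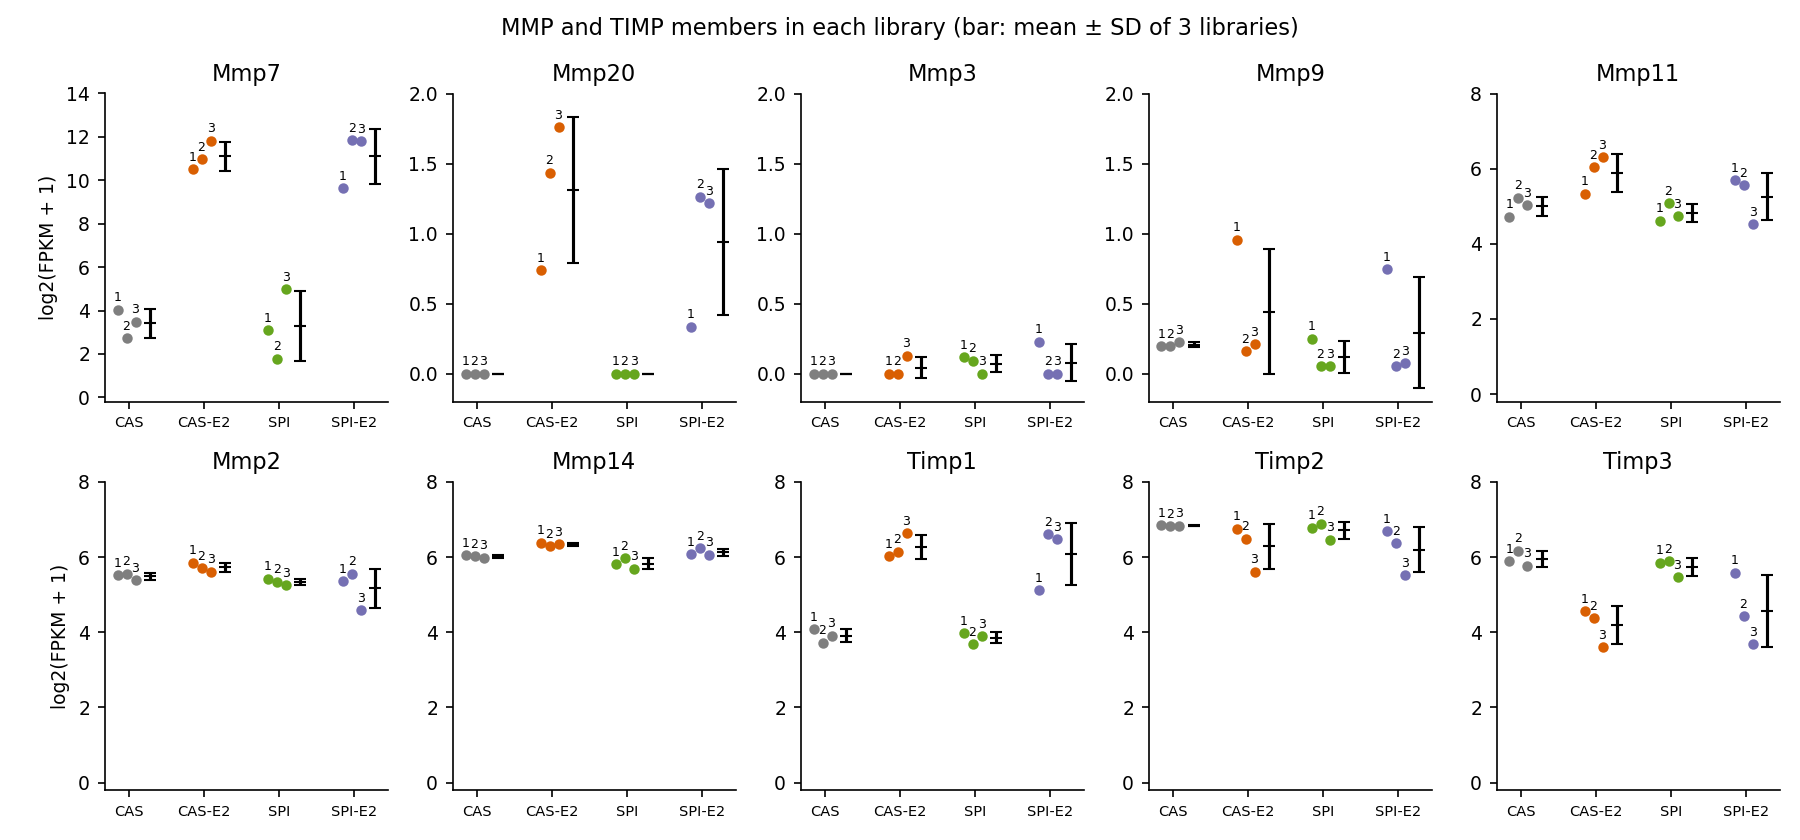
Level of each of the 10 members as log2(FPKM + 1) on the vertical axis in the 12 libraries, by group, with points numbered by library and bars for the mean ± SD of 3 libraries. Mmp7 and Timp1 lie higher in every E2 library than in any vehicle library, Timp3 lies lower in every CAS-E2 library than in any CAS library, and Mmp20 is listed at 0 in all 6 vehicle libraries. The scales differ between panels, and Mmp3, Mmp9 and Mmp20 share a low one.

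Mmp7, matrilysin, is the smallest of the secreted family members and lacks the hemopexin domain that most others carry. Its level was 15.4, 5.55 and 10.2 FPKM in the CAS libraries and 1461, 2000 and 3617 FPKM in the CAS-E2 libraries. In SPI it was 7.53, 2.43 and 30.7 FPKM, and in SPI-E2 796, 3670 and 3605 FPKM. The lowest E2 library, SPI-E2 1, was still 25.9 times the highest SPI library, and the vehicle groups overlapped each other as did the E2 groups. The means were 10.4 ± 4.92 FPKM (SD, n = 3) in CAS and 2359 ± 1122 in CAS-E2, a ratio of 227.7, and 13.6 ± 15.1 in SPI and 2690 ± 1641 in SPI-E2, a ratio of 198.5. On the log2(FPKM + 1) scale the difference was 7.69 on casein (SE 0.77, limma adjusted p = 9.4e-05) and 7.81 on soy (SE 0.77, limma adjusted p = 1.3e-04).

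The rise took Mmp7 to the top of the expressed genes. It ranked 1874th, 4843rd and 2717th by FPKM among all genes in the CAS libraries and 3rd, 2nd and 1st in the CAS-E2 libraries. In SPI-E2 it ranked 8th, 1st and 1st, and in SPI 3488th, 7370th and 655th. Its share of the FPKM summed over the 20 MMP genes in the files was 8.09%, 2.91% and 5.54% in CAS and 85.2%, 89.1% and 93.7% in CAS-E2. In SPI the share was 4.52%, 1.44% and 17.3%, and in SPI-E2 79.1%, 94.3% and 96.0%. Mmp7 transcripts were thus a minority of MMP transcripts in every vehicle library and the large majority in every E2 library. They came to at most 2.00% of the FPKM of all genes, reached in SPI-E2 3.

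Epithelial marker RNA moved with Mmp7, and not to the same extent. Set against the epithelial marker sum of the same library, the Mmp7 level was 6.66%, 2.76% and 4.54% in CAS and 154.4%, 167.5% and 218.2% in CAS-E2. On soy it was 4.62%, 1.85% and 21.8% of that sum without E2 and 143.7%, 183.2% and 182.3% with it. Mmp7 per unit of epithelial marker RNA therefore separated the E2 libraries from the vehicle libraries without overlap, whereas the diets overlapped. The range of that quotient within each E2 group was narrower in proportion than that of the Mmp7 level. Of the epithelial markers tested, 7 of 8 were called higher on casein and 8 of 8 on soy. What part of the Mmp7 difference goes with the amount of epithelium was not tested.

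**Figure D2:**
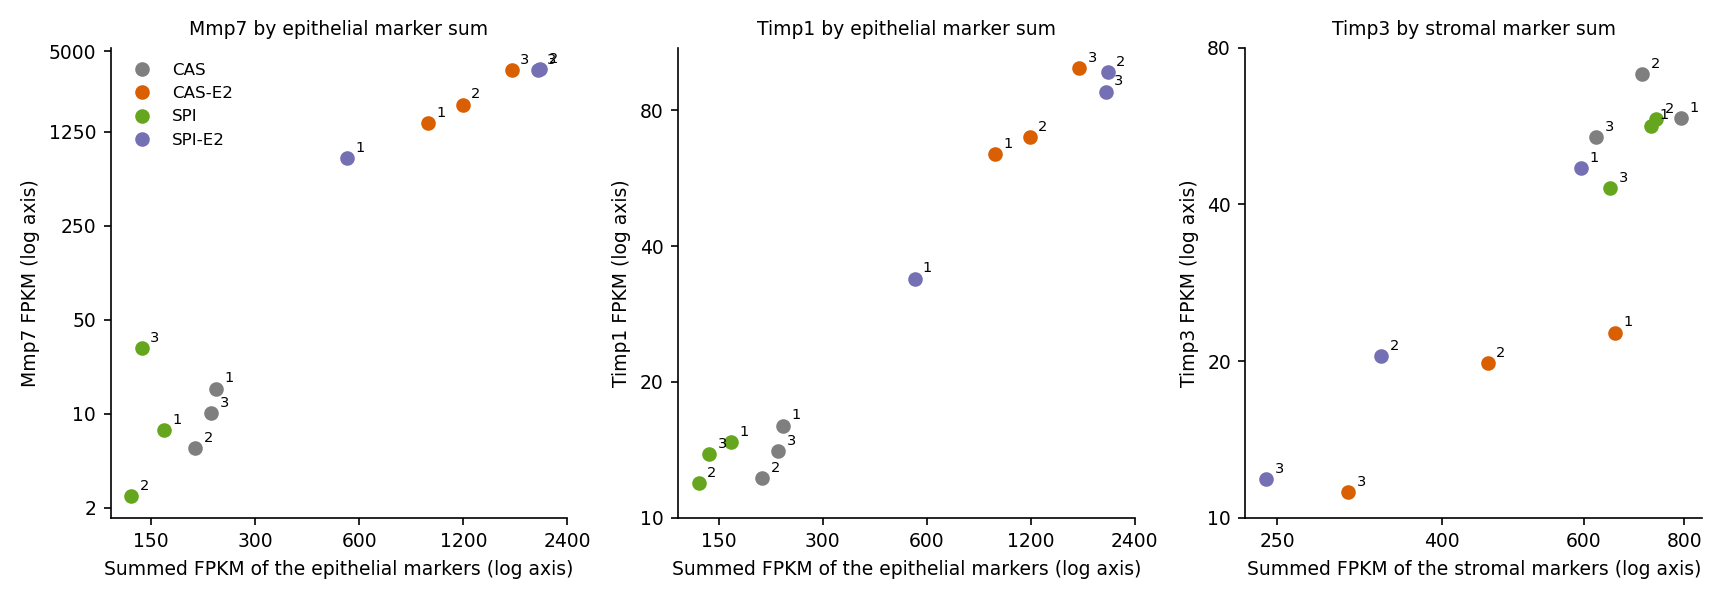
FPKM of Mmp7 and Timp1 against the summed FPKM of the epithelial markers, and of Timp3 against that of the stromal markers, with log scales on both axes and points coloured by group and numbered by library. The E2 libraries lie at 553.4 or more on the epithelial axis, with SPI-E2 1 the lowest of them, and Timp3 in CAS-E2 1 lies at 22.7 FPKM although its stromal sum of 656.2 is within the range of the CAS libraries.

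The neighbours of Mmp7 were read to see how far along the chromosome the difference reached. Within 1 Mb on either side the files hold 17 genes, and 9 of them, Mmp7 included, are MMP genes, the first starting 367.1 kb before Mmp7. Mmp20, the nearest, starts 58.8 kb before it. Enamelysin, as its protein is called, is known for cutting enamel proteins in developing teeth. Mmp20 was listed at 0 FPKM in all 6 vehicle libraries, at 0.670, 1.705 and 2.39 FPKM in CAS-E2 and at 0.263, 1.40 and 1.32 FPKM in SPI-E2. Those levels correspond to about 16.0, 51.2 and 53.3 reads in CAS-E2 and 6.4, 44.8 and 29.8 reads in SPI-E2. On the log2(FPKM + 1) scale the difference was 1.31 on casein (SE 0.28, limma adjusted p = 0.0040). On soy it was 0.94 (limma adjusted p = 0.028), short of the 2-fold minimum, which it passed without SPI-E2 1 at 1.24. Because one side is listed at 0, these differences depend on the value of 1 added before the logarithm and no ratio is given. Mmp20 reached 1 FPKM in CAS-E2 2, CAS-E2 3, SPI-E2 2 and SPI-E2 3 alone. It was therefore tested only because of the groups where it is high, which limits what its adjusted p can show.

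Of the other MMP genes in the row, all but Mmp12 were nearly silent. Mmp1a and Mmp10 were listed at 0 in all 12 libraries. Mmp8, Mmp13 and Mmp27 did not exceed 0.172, 0.246 and 0.151 FPKM. Mmp3, stromelysin-1, which cuts many matrix proteins and other proMMPs, was listed at 0 in all CAS libraries and reached at most 0.172 FPKM, about 2.3 reads, in SPI-E2 1. A difference in Mmp3 was not detectable at this depth. Mmp12, the elastase of macrophages, stood at 1.35, 0.511 and 0.594 FPKM in CAS and 17.2, 1.45 and 5.29 FPKM in CAS-E2. It was 1.99, 0.463 and 1.24 FPKM in SPI and 8.15, 2.65 and 2.47 FPKM in SPI-E2. Mmp12 was called higher on casein (log2 difference 1.87, SE 0.60, limma adjusted p = 0.028), a call that ended without CAS-E2 1, where the difference was 1.14, and without any of CAS 2, CAS 3 and CAS-E2 3.

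On the far side of Mmp7 the genes are of other families. The membrane protein gene Tmem123, 78.1 kb after the start of Mmp7, ranged from 20 to 33.9 FPKM in CAS and from 32.23 to 39.3 FPKM in CAS-E2. Birc3, an inhibitor of apoptosis 155.9 kb away, was at 0.640 to 0.923 FPKM in CAS, 3.33 to 9.88 in CAS-E2, 0.696 to 1.04 in SPI and 3.66 to 9.12 in SPI-E2. Its relative Birc2, in between, was at 3.86 to 4.64 FPKM in CAS and 2.95 to 3.81 FPKM in CAS-E2. On both diets the E2 libraries were thus above the vehicle libraries at Mmp12, Mmp20, Mmp7 and Birc3. At Birc2, which lies between the latter pair, they were below on casein. On soy Birc2 overlapped, at 3.44 to 3.92 FPKM in SPI and 2.68 to 4.19 FPKM in SPI-E2. Tmem123 was above on soy alone (21.94 to 27.65 FPKM in SPI and 31.81 to 43.43 FPKM in SPI-E2). So was Yap1, a transcriptional coactivator, at 16.71 to 19.38 and 23.27 to 27 FPKM. Dync2h1, a motor protein of cilia, lies on the near side, beyond Mmp13, and was below on both diets. It was at 1.597 to 1.934 FPKM in CAS, 0.4043 to 0.8197 in CAS-E2, 1.495 to 1.828 in SPI and 0.4514 to 1.306 in SPI-E2. Dcun1d5, next to Dync2h1, was above on casein alone. Its level was 4.548 to 6.163 FPKM in CAS, 6.171 to 12 in CAS-E2, 5.339 to 6.298 in SPI and 4.706 to 9.128 in SPI-E2. Of all genes tested, 55.1% had groups without overlap on casein and 41.3% on soy, in either direction.

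**Figure D3:**
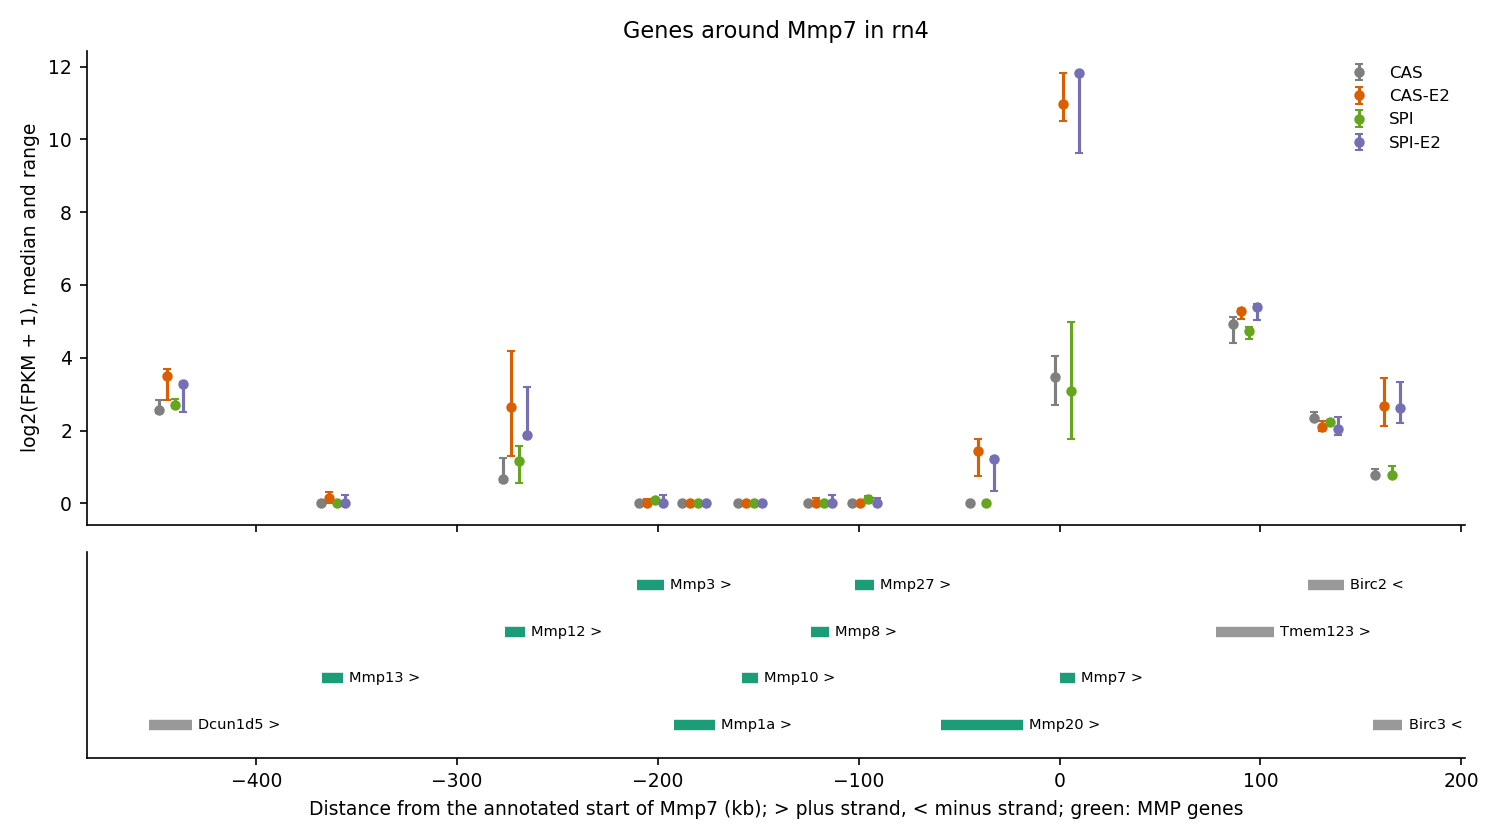
Median and range over 3 libraries of log2(FPKM + 1) in each group for the genes around Mmp7, placed by distance in kb from its annotated start, above a map of the same genes with the MMP genes in green. Mmp7 is the only MMP gene of the row whose group medians rise above 4 on this scale, and Mmp1a and Mmp10 lie at 0 in all groups.

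The 4 other proteases had lower ratios between groups or almost no RNA. Mmp11, stromelysin-3, is made by stromal cells and activated inside the cell by furin. It was at 25.3, 36.5 and 31.8 FPKM in CAS and 39.3, 64.6 and 78.4 FPKM in CAS-E2, with no overlap. The log2 difference of 0.90 (SE 0.32, limma adjusted p = 0.042) was under the 2-fold minimum, and without CAS-E2 1 it was 1.18 and called. On soy the groups overlapped, at 23.6, 32.8 and 25.7 FPKM in SPI and 50.5, 46.2 and 22.0 FPKM in SPI-E2 (log2 difference 0.44, limma adjusted p = 0.31).

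Mmp14, the membrane-anchored protease that with Timp2 activates proMmp2, was the most even member. It stood at 65.7, 64.2 and 62.4 FPKM in CAS and 82.5, 77.8 and 80.05 FPKM in CAS-E2. In SPI it was at 55.3, 61.8 and 50.8 FPKM and in SPI-E2 at 66.6, 74.2 and 65.95 FPKM. The E2 libraries lay above the vehicle libraries of the same diet, by 0.32 on casein (95% interval 0.04 to 0.60, limma adjusted p = 0.069) and 0.30 on soy (95% interval 0.02 to 0.58, limma adjusted p = 0.10), neither of which passed. Its partner Mmp2, gelatinase A, was at 45.0, 46.3 and 40.9 FPKM in CAS, 56.9, 51.2 and 48.1 in CAS-E2, 42.0, 39.8 and 37.3 in SPI and 40.3, 46.3 and 23.1 in SPI-E2. The log2 difference was 0.23 on casein (95% interval −0.23 to 0.70, limma adjusted p = 0.40) and −0.17 on soy (95% interval −0.64 to 0.29, limma adjusted p = 0.57).

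Mmp9, gelatinase B, is carried by neutrophils and macrophages among other cells. It was at 0.189 FPKM or less in 10 libraries, at 0.940 FPKM in CAS-E2 1 and at 0.679 FPKM in SPI-E2 1, the former about 20.4 reads. The other libraries of those groups had 3.2 reads or fewer by the same estimate, so that 1 library of each E2 group stood apart. Those same libraries were the highest for Mmp12 in their groups. The summed macrophage markers were 18.6 to 26.5 FPKM in CAS, 59.98 to 90.2 in CAS-E2, 22.5 to 33.4 in SPI and 38.3 to 54.9 in SPI-E2, highest in CAS-E2 1 and, among the SPI-E2 libraries, lowest in SPI-E2 1, with Emr1 listed at 0 throughout. The summed neutrophil markers were 2.42 to 4.48 FPKM in CAS, 18.3 to 56.5 in CAS-E2, 6.96 to 9.12 in SPI and 9.96 to 23.8 in SPI-E2. Macrophage markers were called higher in 3 of 5 tested on casein and 2 of 5 on soy, and neutrophil markers in 2 of 5 and 1 of 5, with 1 lower on soy. The soy counts were the less stable, the neutrophil calls falling from 2 in all to 0 or 1 without any of 9 libraries (SPI-E2 1, CAS-E2 1 and CAS-E2 3 were the exceptions) and the macrophage calls to 1 without SPI 3. Their part in the Mmp9 and Mmp12 values was not tested.

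The inhibitors did not move as a group. Timp1, a secreted inhibitor that many cells induce under growth and inflammatory signals, was at 16.0, 12.3 and 14.1 FPKM in CAS and 64.0, 69.6 and 99.0 FPKM in CAS-E2. In SPI it was at 14.7, 11.9 and 13.8 FPKM and in SPI-E2 at 33.9, 97.2 and 87.9 FPKM. Every E2 library was above every vehicle library, and SPI-E2 1 was the lowest of the E2 libraries, as it was for Mmp7. The log2 difference was 2.36 on casein (SE 0.33, limma adjusted p = 4.9e-04) and 2.22 on soy (SE 0.33, limma adjusted p = 0.0011), from ratios of means of 5.50 and 5.41.

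In contrast to Mmp7, Timp1 kept close to the epithelial marker sum on casein, though not on soy. It amounted to 6.93%, 6.10% and 6.28% of that sum in CAS and 6.76%, 5.83% and 5.97% in CAS-E2, which overlapped. In SPI it was 9.01%, 9.08% and 9.82% and in SPI-E2 6.12%, 4.85% and 4.45%, lower with E2. The proportion is a description of these libraries, and which cells held the Timp1 transcripts was not measured.

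Timp3, the inhibitor that stays bound to the extracellular matrix and also blocks ADAM proteases, moved the other way. It was at 58.5, 71.3 and 53.8 FPKM in CAS and 22.7, 19.8 and 11.2 FPKM in CAS-E2, without overlap, and its log2 difference was −1.76 (SE 0.39, limma adjusted p = 0.0051). In SPI it was at 56.7, 58.3 and 43.0 FPKM and in SPI-E2 at 47.0, 20.5 and 11.9 FPKM, where SPI-E2 1 lay within the SPI range. That difference, −1.17 (SE 0.39, limma adjusted p = 0.0455), passed narrowly, and it was no longer called in 9 of the 12 fits that left out 1 library. The 9 libraries were CAS 1, CAS 2, CAS 3, CAS-E2 2, SPI 1, SPI 2, SPI 3, SPI-E2 2 and SPI-E2 3, and the difference ranged from −1.68 to −0.73 over the 12 fits.

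The stromal marker sum was lower with E2 on soy without overlap. On casein its mean was lower too, at 472.8 against 708.2 FPKM, but CAS-E2 1 lay within the CAS range. The markers Col1a1 and Col1a2 overlapped between CAS and CAS-E2. Timp3 can be set beside that sum. Timp3 came to 7.37%, 10.1% and 8.65% of the stromal marker sum in CAS and 3.46%, 4.34% and 3.66% in CAS-E2, again without overlap. On soy it was 7.8%, 7.90% and 6.64% without E2 and 7.88%, 6.08% and 4.91% with E2, which overlapped. Of 7 stromal markers tested, 3 were called lower on casein and 5 on soy. The first count was 1 without CAS 1, CAS 2 or CAS-E2 3, and the second ran from 0 without SPI-E2 2 to 7, falling to 3 or fewer without CAS 1, CAS 2, SPI 1, SPI 2 or SPI-E2 3 as well. Their part in the Timp3 difference was not tested.

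Timp2, which bridges Mmp14 and proMmp2 at the cell surface and inhibits both, was the most abundant inhibitor of the vehicle groups. It stood at 115, 112 and 114 FPKM in CAS and 107, 89.1 and 48.0 FPKM in CAS-E2, and at 109, 117 and 87.6 FPKM in SPI and 103, 82.2 and 45.1 FPKM in SPI-E2. The log2 difference was −0.55 on casein (95% interval −1.25 to 0.14, limma adjusted p = 0.19) and −0.51 on soy (95% interval −1.21 to 0.18, limma adjusted p = 0.24). It was −0.22 on casein without CAS-E2 3 and −0.18 on soy without SPI-E2 3. The wide intervals came with a spread of more than 2-fold within each E2 group. Per stromal marker RNA, Timp2 was 14.5% to 18.3% in CAS, 15.7% to 19.5% in CAS-E2, 13.5% to 15.9% in SPI and 17.2% to 24.4% in SPI-E2.

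As a result the inhibitor RNA was made up differently while its sum was not. Timp1, Timp2 and Timp3 together came to 181.6 to 196 FPKM in CAS, 158.2 to 194 in CAS-E2, 144.4 to 187.7 in SPI and 144.9 to 199.9 in SPI-E2, ranges that overlapped. Timp3 was 29.6% to 36.4% of that sum in CAS and 7.08% to 11.7% in CAS-E2. On soy it was 29.8% to 31.4% without E2 and 8.21% to 25.6% with E2, the highest of these in SPI-E2 1. The summed MMP level divided by the summed TIMP level was 0.972 to 1.01 in CAS and 0.899 to 1.23 in SPI, against 8.84 to 24.4 in CAS-E2 and 5.48 to 25.9 in SPI-E2. With Mmp7 left out of the proteases the same quotient was 0.924 to 0.954 in CAS, 1.31 to 1.53 in CAS-E2, 0.881 to 1.02 in SPI and 1.03 to 1.14 in SPI-E2. These are quotients of RNA levels and say nothing of active enzyme.

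**Figure D4:**
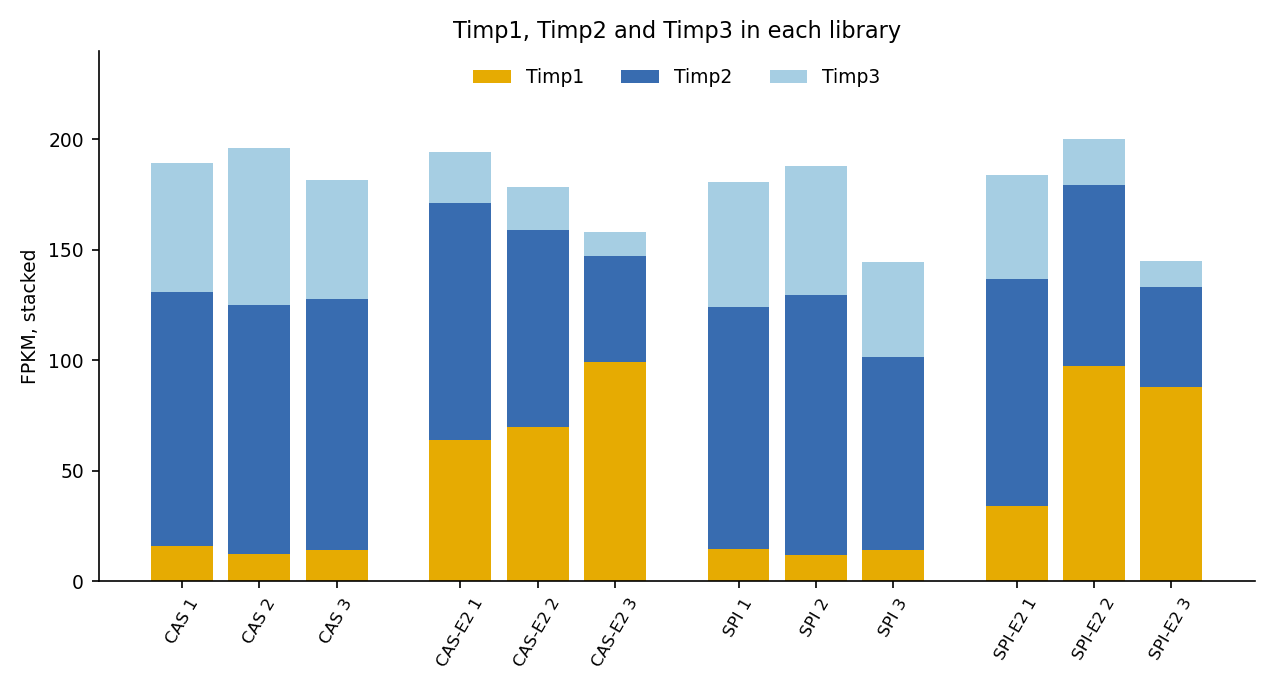
FPKM of Timp1, Timp2 and Timp3 stacked for each of the 12 libraries, from 0 on the vertical axis. The stacks keep to 144.4 to 199.9 FPKM in all groups, while the Timp1 part is larger in every E2 library than in any vehicle library and the Timp3 part smaller in all of them but SPI-E2 1.

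Ordered by level, the members changed places between groups. The order is given for the 7 highest, with Mmp20, Mmp9 and Mmp3 below them in both groups. In CAS the means ran from Timp2 (114 FPKM) over Mmp14 (64.1), Timp3 (61.2), Mmp2 (44.1), Mmp11 (31.2) and Timp1 (14.1) to Mmp7 (10.4). Mmp14 and Timp3 overlapped in their libraries, as did Timp1 and Mmp7, and the other neighbours of that order did not. In CAS-E2 the order was Mmp7 (2359 FPKM), Timp2 (81.5), Mmp14 (80.1), Timp1 (77.5), Mmp11 (60.8), Mmp2 (52.1) and Timp3 (17.9). From Timp2 to Mmp2 each neighbouring pair overlapped in its libraries, whereas Mmp7 and Timp3 stood clear at either end of these 7.

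**Figure D5:**
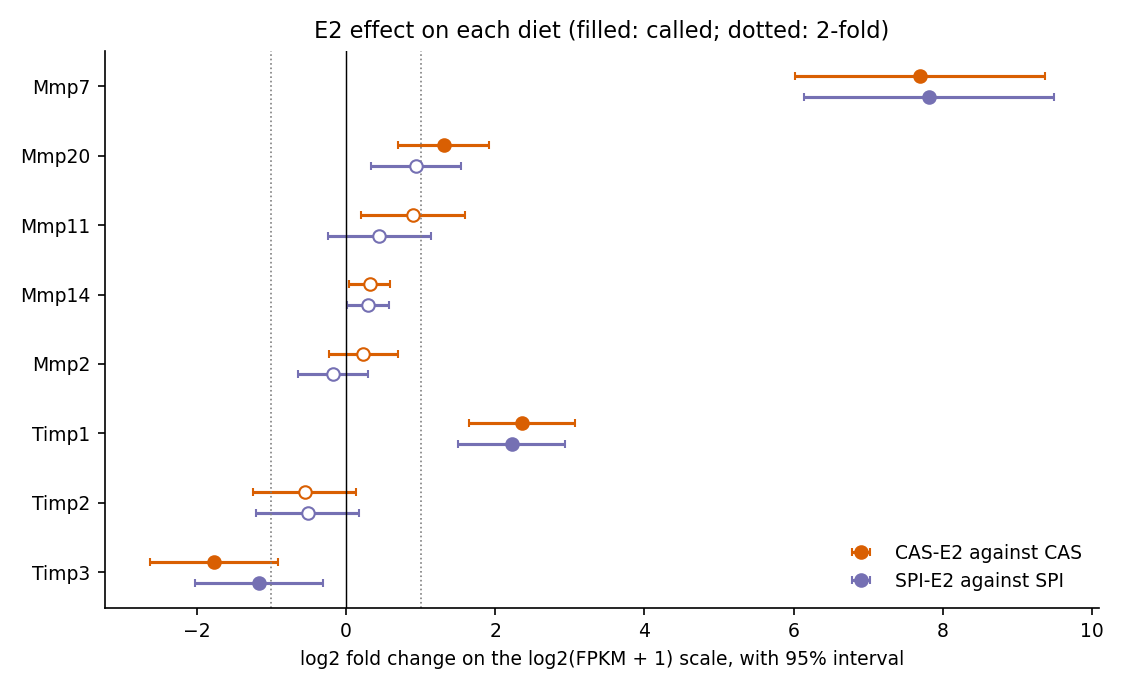
Difference with E2 for the 8 tested members on each diet, as log2 fold change on the log2(FPKM + 1) scale with its 95% interval, filled where called and with dotted lines at 2-fold. Mmp7 lies at 7.69 and 7.81, Timp1 at 2.36 and 2.22, and Timp3 at −1.76 and −1.17, and the intervals of the diets overlap for all 8 members.

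The second question was whether the diet alone, or the diet under E2, changed the members. For SPI against CAS, 0 of the 8 tested members were called by limma, beside 0.0195% of all genes, and 0 had an unadjusted p under 0.05. The differences ran from −0.22 for Timp3 to 0 for Mmp20, which was listed at 0 on both sides. For Mmp7 the difference was −0.12 with a 95% interval of −1.80 to 1.55, so that a change of more than 2-fold in either direction lies within its error. The interval was narrowest for Mmp14, −0.48 to 0.08 around −0.20, and Mmp14 was the only member whose groups did not overlap, beside 32.8% of all genes. The median over all genes was itself −0.16 in this comparison and 0.00 after median-ratio scaling of the libraries. Under that scaling 6 of the 8 members, all but Timp3 and Mmp20, had a difference of the opposite sign.

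For SPI-E2 against CAS-E2 limma called 0 of the 8 members, beside 0.00973% of all genes. Only Mmp2 had an unadjusted p under 0.05, with a log2 difference of −0.55 (95% interval −1.02 to −0.09, limma adjusted p = 0.77). Without SPI-E2 3 it was −0.26. All 3 SPI-E2 libraries of Mmp2 were below the CAS-E2 libraries, as they were for Mmp14, so that 2 of the 8 had groups without overlap, beside 6.99% of all genes. For Mmp7 the difference was 0.00 (95% interval −1.68 to 1.67) and for Timp1 −0.20 (95% interval −0.91 to 0.51).

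The third question was whether the response to E2 differed between diets. This was tested as the E2 difference on soy less that on casein, and limma gave an adjusted p under 0.05 for 0 of the 8 members and for 0% of all genes, with 0 members and 1530 genes at an unadjusted p under 0.05. The difference of differences was 0.12 for Mmp7 (95% interval −2.25 to 2.49), −0.14 for Timp1 (−1.15 to 0.87), −0.37 for Mmp20 (−1.23 to 0.49) and 0.60 for Timp3 (−0.62 to 1.81). Each of these intervals reaches past 2-fold in at least 1 direction. The median in this comparison was −0.08 for the 8 members and 0.21 for all genes, the latter 0.00 after median-ratio scaling. Without SPI-E2 1, 112 genes passed this test and still 0 members.

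SPI-E2 was also compared with CAS, the contrast of diet and hormone together, which uses the same CAS libraries as the first comparison. Limma called 2 members higher and 1 lower, beside 6.84% and 3.89% of all genes, with medians of 0.18 for the members and −0.04 for all genes. The adjusted p alone was passed by 4 of the 8, beside 29.3%, and 6 had groups that did not overlap, beside 43.6%. The log2 differences were 7.69 for Mmp7, 2.16 for Timp1 and −1.38 for Timp3 (limma adjusted p = 0.023). The Timp3 call ended without CAS 1, CAS 2, SPI-E2 2 or SPI-E2 3, the last of which brought the difference to −0.94.

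Outside the members, 14 other MMP and TIMP genes had a row and 8 reached the expression minimum. On casein 2 were called higher with E2, Mmp12 and Mmp17, and 1 lower, Mmp15, and their median difference was −0.10, close to the −0.07 of all genes. Mmp15, a membrane-type protease related to Mmp14, was at 10.7, 9.45 and 10.8 FPKM in CAS and 2.06, 1.42 and 2.24 FPKM in CAS-E2 (log2 difference −1.97, SE 0.28, limma adjusted p = 6.0e-04). Mmp17, held in the membrane by a lipid anchor, was at 3.58, 5.83 and 4.28 FPKM in CAS and 22.5, 19.0 and 8.56 FPKM in CAS-E2 (1.59, SE 0.36, limma adjusted p = 0.0057). The membrane-type proteases thus fell (Mmp15), rose (Mmp17) or did not pass (Mmp14, and Mmp16 at −0.15) on casein. On soy Mmp17 was again higher (1.68, limma adjusted p = 0.0068) and Mmp15 lower (−1.02, limma adjusted p = 0.022), the latter no longer called without SPI 1, SPI 2, SPI-E2 2 or SPI-E2 3. Timp4 was at or under 1.82 FPKM in all libraries, and the E2 libraries were below the vehicle libraries on both diets. Its log2 difference was −0.76 on casein (limma adjusted p = 0.0075) and −0.88 on soy (limma adjusted p = 0.0056), short of the 2-fold minimum on the log2(FPKM + 1) scale.

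Genes that activate MMPs or hold them at the cell surface were read next, 19 of them tested. On casein 7 were called higher and 3 lower with E2, and on soy 7 higher and 1 lower, with medians of 0.48 and 0.49. Of all genes, 7.99% were called higher and 6.37% lower on casein and 8.39% and 1.86% on soy, with medians of −0.07 and 0.11. Without CAS-E2 3 the casein counts were 5 and 1. Lcn2, which binds Mmp9 and is secreted by inflamed epithelium, was at 4.405, 2.57 and 2.81 FPKM in CAS and 148, 125 and 784 FPKM in CAS-E2 (5.87, SE 0.62, limma adjusted p = 1.3e-04). The proprotein convertase Pcsk6 was higher by 2.45 on casein and 2.12 on soy, and the hyaluronan receptor Cd44 by 1.47 and 1.32. Furin, the convertase that processes Mmp11 and Mmp14, was at 20.7, 19.0 and 20.7 FPKM in CAS and 37.7, 37.0 and 37.7 FPKM in CAS-E2, below the 2-fold minimum, and was called on soy at 1.42. On the lower side were Reck, a membrane-bound inhibitor of MMPs (−1.11 on casein), the endocytic receptor Lrp1 that clears proteases (−1.15 on casein) and the proteoglycan Spock2 (−1.39 on casein and −1.29 on soy). Reck stood at 7.05, 6.98 and 6.97 FPKM in CAS and 3.20, 3.32 and 1.81 FPKM in CAS-E2.

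The related ADAM and ADAMTS proteases, some of which Timp3 inhibits, had 14 genes tested, 3 called higher and 0 lower on each diet, to be read against the same shares of all genes. They were the sheddase Adam9 (1.705 on casein, 1.73 on soy), the aggrecanase Adamts4 (1.58 on both) and Adam28 (1.35 and 1.55). Among 17 tested genes for MMP substrates, 6 were higher and 2 lower on casein and 4 higher and 3 lower on soy, beside those shares. Lamb3, a laminin chain of the epithelial basement membrane (1.97 and 2.41), and the growth factor precursor Hbegf (1.51 and 1.31) were higher on both diets. The carrier of insulin-like growth factors Igfbp3 was lower on both (−2.59 and −2.27), Igfbp5 on casein (−1.42), and the stromal matrix genes Col3a1 (−1.28) and Dcn (−1.04) on soy. Cdh1, Col1a1, Col1a2 and Dcn stand on a marker list as well, so these counts are not independent of the epithelial and stromal ones.

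Because Mmp20 is an enamel protease, the genes of the enamel matrix were read beside it. Enam and Klk4 were listed at 0 in all 12 libraries, Ambn in all but 1, and Amelx did not exceed 0.529 FPKM. Odam was listed at 0 in all vehicle libraries and was at 0.142, 0.450 and 0.758 FPKM in CAS-E2 and 0.139, 0.423 and 0.598 FPKM in SPI-E2, a pattern like that of Mmp20 at a lower level. Amtn was listed at 0 in CAS and was at 2.58, 5.06 and 0.922 FPKM in CAS-E2. It was the only enamel matrix gene to reach the expression minimum, and it did so through E2 libraries alone. Amtn was called on both diets, with that limit. The call ended on casein without CAS-E2 2 and on soy without any of SPI 1, SPI 2, SPI 3, SPI-E2 2 and SPI-E2 3.

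The genes whose levels followed each called member most closely over the 12 libraries are given as a description, since all of them contain the same step between vehicle and E2 groups. For Mmp7 they were Cuzd1, Lpo and Scgb1a1, with Pearson r of 0.998, 0.994 and 0.993 on the log2 scale. All 3 share its low SPI 2 and raised SPI 3 values, with Cuzd1 at 0.561 and 5.42 FPKM in those libraries. For Timp1 they were Fuca1, Eno1 and Parp9 (0.997, 0.996 and 0.995), for Mmp20 Slc5a1, Pdia3 and Sp110 (0.989, 0.985 and 0.981) and for Timp3 Fat4, Rtn1 and Tnfsf12 (0.987, 0.985 and 0.983). Among the members, Mmp7 and Timp1 had an r of 0.98 and Timp1 and Timp3 one of −0.94.

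Endothelial markers were called lower in 1 of 3 tested on each diet, fat markers higher in 1 of 6 on casein and lower in 1 of 6 on soy, and liver markers in 0 of 4 on either. Leaving out 1 library moved the endothelial count to 2 on casein (without CAS 3) and 0 on soy (without SPI 1, SPI 2, SPI-E2 2 or SPI-E2 3). The fat count went to 2 on casein without SPI 3, and on soy to 0 without SPI 2 or SPI-E2 2, 3 without CAS-E2 3 or SPI-E2 1, and 4 without SPI 3.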

How the data were processed

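Poly-A RNA of 12 libraries (3 per group, each a pool of 2 uteri) was read as 36-base single reads, aligned by the authors to rn4 with TopHat2 2.0.9 on Bowtie2 2.1.0 and quantified with Cufflinks 2.1.1. The deposited values are FPKM and coverage per transcript, normalized by the authors for length and mapped reads, and FPKM were summed here over the transcripts of a gene. No counts were used. The 10279 genes that reached 1 FPKM in 3 or more libraries were tested on log2(FPKM + 1) with limma 3.58.1 (moderated fit with a variance trend, all 12 libraries, R 4.3.3, Benjamini-Hochberg adjustment). A call needed an adjusted p under 0.05 and 2-fold, and the difference between diets in the response to E2 needed the adjusted p alone. The fit was tested on simulated data. Depth was estimated as coverage divided by FPKM and read length, and intervals are at 95%.

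Genes other than the 10 members were named where called in a list (up to 3 per direction by adjusted p), where they are MMP genes within 1 Mb of Mmp7, or where they had the 3 highest correlations with a member called on casein. Furin, Timp4, Mmp16, Odam, the other enamel genes and the neighbours of other families were named after their values were seen. One gene that the rule names is not reported here. The members and lists were chosen with earlier results of these data known. Deviations from the group mean correlated between same-numbered CAS-E2 and SPI-E2 libraries (r = 0.269, 0.117 and 0.336 over genes). For the other pairs of groups r ran from -0.263 to 0.153, and differently numbered libraries were not compared. A fit with the number as a block was run as an alternative. Whether libraries were paired by number is not given in the sources used here.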

Additional observations from a re-analysis of the deposited data

How the results depend on the processing

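The number of members called stayed between 3 and 5 for CAS-E2 against CAS, 2 and 4 for SPI-E2 against SPI and 2 and 4 for SPI-E2 against CAS over 23 alternatives, and was 0 in the other comparisons under every alternative run. Of 1082 member values under alternatives, 1008 kept their direction and their side of the threshold, 17 lost the call, 10 gained it and 47 changed sign, 0 of these being called. Timp3 on soy lost its call in 11 of 23 alternatives and in SPI-E2 against CAS in 5, and Mmp20 on casein lost its call with 5 added before the logarithm (0.39). Mmp20 on soy was called at 3.20 with 0.1 added and at 1.12 with array weights, and was not tested where FPKM of at least 5 was required. With the replicate block no member call changed (Mmp7 on casein 7.69, limma adjusted p = 1.7e-04).

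Sign changes all fell on differences short of the threshold. With 5 added they were Mmp7 in SPI against CAS (0.0094) and in the diet difference of the E2 response (−0.0106). With median-ratio scaling they were, in SPI against CAS, Mmp2 (0.0589), Mmp7 (0.0601), Mmp11 (0.0217), Mmp14 (0.0089), Timp1 (0.14) and Timp2 (0.0809), and in the diet difference of the E2 response Mmp7 (−0.11) and Timp2 (−0.21). With array weights they were Mmp7 (0.35) and Timp1 (0.044) in SPI against CAS, Mmp7 (0.60), Timp1 (0.19) and Timp3 (−0.16) in SPI-E2 against CAS-E2, Mmp11 (−0.0843) in SPI-E2 against CAS, and Mmp14 (0.0101), Timp1 (0.15) and Timp2 (−0.36) in the diet difference of the E2 response. Leaving out 1 library gave ranges across 0 for Mmp7 (−0.97 to 0.63) and Timp1 (−0.15 to 0.0315) in SPI against CAS, Mmp2 in SPI-E2 against SPI (−0.37 to 0.12), and Mmp7 (−0.37 to 0.73), Timp1 (−0.47 to 0.28), Timp2 (−0.43 to 0.25) and Timp3 (−0.13 to 0.82) in SPI-E2 against CAS-E2. In the diet difference of the E2 response they were Mmp7 (−0.63 to 0.97), Mmp14 (−0.0855 to 0.0538), Timp1 (−0.41 to 0.33) and Timp2 (−0.30 to 0.38). The cause was not tested.

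Over all genes, the 1476 calls for CAS-E2 against CAS became 573 with 5 added and 4018 without the fold minimum, and the 1053 for SPI-E2 against SPI became 472, 2840, 1739 without SPI-E2 1 and 672 without SPI-E2 2. The 1103 for SPI-E2 against CAS became 446, 3016, 1781 without SPI-E2 1 and 706 without SPI-E2 3. The diet difference of the E2 response went from 0 genes to 112 without SPI-E2 1 and 362 with array weights, and SPI against CAS from 2 to 59 with array weights, at most 7 otherwise. SPI-E2 against CAS-E2 had 0 to 5 genes. A fit of only the groups compared, or without a fold minimum, does not exist for the diet difference of the E2 response. At the depth of these libraries, Mmp9 levels of 0.189 FPKM or less rested on at most 4.3 reads.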
